A study of Homo sapiens with 6 samples.

Results

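The Notch receptors NOTCH1, NOTCH2, NOTCH3 and NOTCH4, their ligands DLL1, DLL3, DLL4, JAG1 and JAG2, and the Notch target HES1 were examined in RKO cells, an established line grown from a human colon carcinoma. The 10 genes were chosen by name, through the RefSeq accession that opens each probe set identifier. All 10 were found, among 927 genes with a symbol, and they were measured by 12 of the 1259 probe sets in the table: 3 for DLL3 and 1 for each other gene. The population called RKO C2 F3 (F3, 3 arrays) was sorted by flow cytometry for low u-PAR, the urokinase receptor, from the clonal population RKO C2 (C2, 3 arrays). The study asked which glycosylation enzyme is deficient in cells whose u-PAR does not mature. The labels name no treatment and no engineered allele for either population, and all F3 arrays represent 1 sorted derivative of 1 clone. Arrays are numbered 1 to 3 in both populations, and same-numbered arrays share a label suffix, so differences between same-numbered arrays are given for most members.

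Notch signalling runs between touching cells. A ligand of the Delta-like or Jagged family on one cell binds a Notch receptor on its neighbour, the receptor is cut by ADAM metalloproteases and then by gamma-secretase, and the freed intracellular domain joins the DNA-binding protein RBPJ in the nucleus to switch on targets such as HES1. The extracellular parts of the receptors and ligands are rows of EGF-like repeats that carry O-linked fucose and glucose, and Fringe enzymes extend the fucose, which changes how receptors respond to the 2 ligand families. In the intestine, Notch keeps crypt progenitors dividing, and HES1 holds back the secretory fate.

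No member changed past the threshold between the populations. Of the 12 member probe sets, 0 had an adjusted p under 0.05 in limma (moderated linear model, Benjamini-Hochberg over all 1259 probe sets), and 1, JAG1, had an unadjusted p under 0.05. Over all probe sets 1, or 0.0794%, was called, and 68, or 5.40%, had an unadjusted p under 0.05. The F3 and C2 arrays overlapped for each of the 12 probe sets, against 10.3% of all probe sets without overlap. The member changes were 7 positive and 5 negative, where 45.4% of all probe sets had a positive change. Their median log2 change (F3 minus C2) was 0.05, beside a median of -0.0064 over all probe sets. JAG1 and HES1 had the highest absolute changes of the members and stood at ranks 10 and 14 of 1259 in the table. The 95% interval lay inside a 1.5-fold change either way for 11 of the 12 probe sets, the exception being JAG1, and that of HES1 reached 1.48-fold. The share of all probe sets with such an interval was not counted, so the count marks nothing particular to the members. The SE ran from 0.052 to 0.13 over the members, beside a median of 0.066 over all probe sets.

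**Figure D1:**
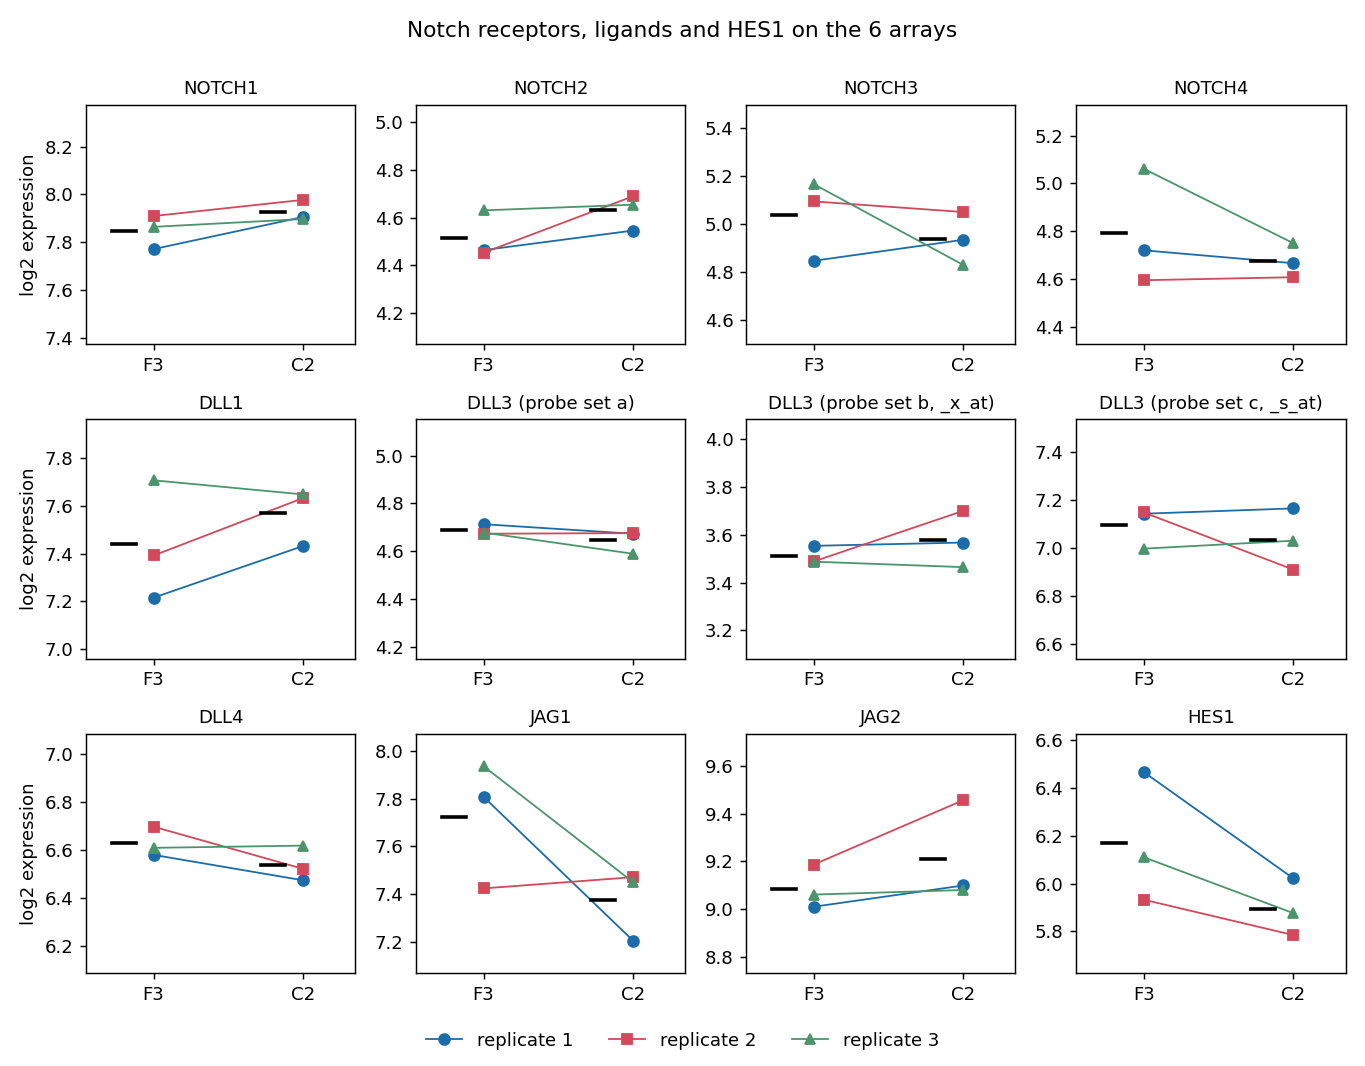
Log2 expression (vertical axes, each spanning 1 log2 unit) of the 12 probe sets on the F3 and C2 arrays (horizontal axes). Lines join arrays of the same number and black bars are group means. The groups overlap in every panel, and JAG1 on replicates 1 and 3 and HES1 on all 3 replicates are higher in F3.

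Among the receptors, NOTCH1, the receptor best known in the intestinal crypt, had log2 levels of 7.77, 7.91 and 7.86 on the F3 arrays 1 to 3, against 7.91, 7.98 and 7.90 on the C2 arrays 1 to 3. Each F3 array was below the C2 array of the same number, by at most 0.13, and the ranges overlapped narrowly. The mean was 7.85 ± 0.07 in F3 and 7.93 ± 0.04 in C2 (SD, n = 3 each), a log2 change of -0.08 (95% interval -0.21 to 0.05, limma adjusted p = 0.97). It was -0.04 without F3 replicate 1 and -0.02 after a second quantile normalization. NOTCH2, which acts beside NOTCH1 in crypt progenitors, had log2 levels of 4.46, 4.45 and 4.63 in F3, against 4.55, 4.69 and 4.65 in C2. It too was lower in F3 on each same-numbered pair, with differences of -0.08, -0.24 and -0.02. The log2 change was -0.11 (95% interval -0.27 to 0.04, limma adjusted p = 0.97), and it was -0.17 without F3 replicate 3 and -0.05 without both arrays of number 2. Part of NOTCH2 has near-identical human copies, the NOTCH2NL genes, and whether these probes also bind their transcripts was not determined.

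NOTCH3, a receptor of vascular smooth muscle and some carcinomas, averaged 5.04 ± 0.17 in F3 and 4.94 ± 0.11 in C2 (log2 level, SD, n = 3 each). Its same-numbered differences pointed both ways, at -0.09, 0.04 and 0.34. NOTCH4, known from endothelium, had log2 levels of 4.72, 4.60 and 5.06 in F3, against 4.67, 4.61 and 4.75 in C2. Only F3 replicate 3 stood above every C2 array. The log2 changes were 0.10 for NOTCH3 and 0.12 for NOTCH4 (limma adjusted p = 0.97 each). With 1 array left out in turn NOTCH3 ran from 0.03 (without F3 replicate 3) to 0.19 (without F3 replicate 1), and NOTCH4 was at -0.02 without F3 replicate 3.

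**Figure D2:**
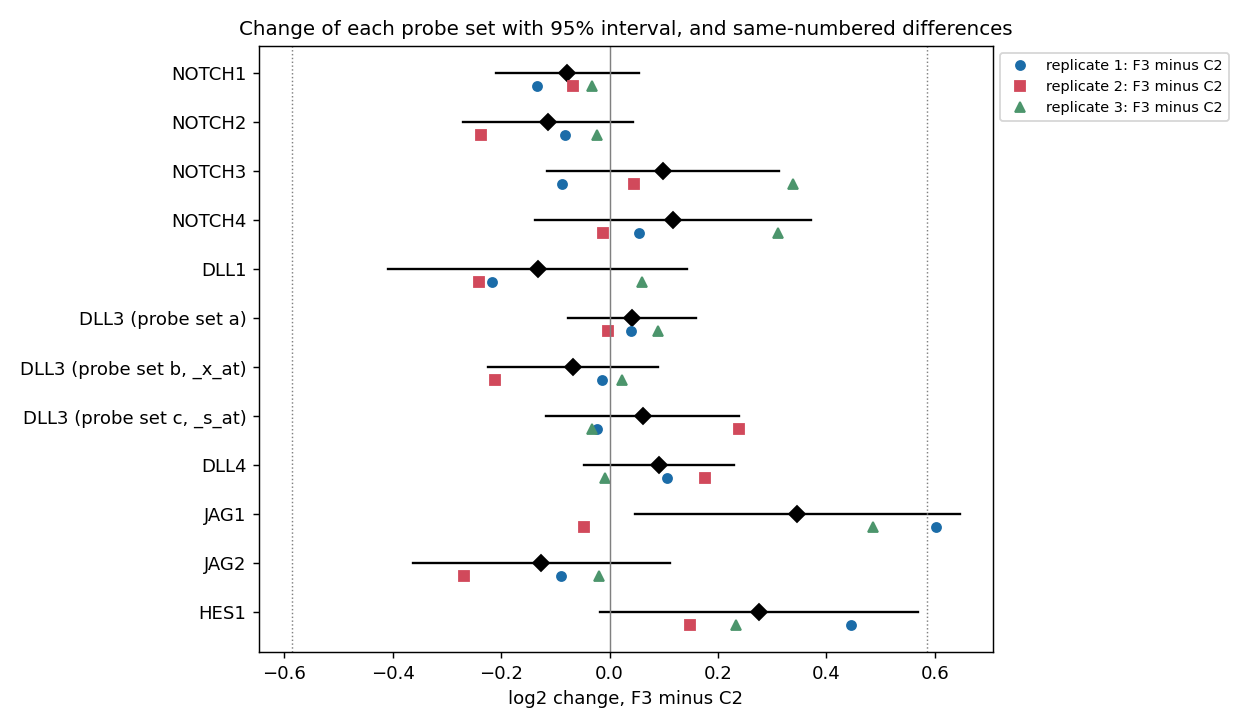
Log2 change (F3 minus C2, horizontal axis) of each probe set, with diamonds for the group difference, lines for the 95% limma interval and coloured points for the differences between same-numbered arrays. Dotted lines mark a 1.5-fold change. In this fit without a block JAG1 is the only probe set whose interval excludes 0, and HES1 has all 3 differences above 0.

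JAG1, a Jagged ligand that drives Notch signalling in many epithelia, had the highest change of the set. Its log2 levels were 7.81, 7.42 and 7.94 on F3 arrays 1 to 3, against 7.21, 7.47 and 7.45 on C2 arrays 1 to 3. F3 replicates 1 and 3 lay above all C2 arrays, whereas F3 replicate 2 lay below C2 replicates 2 and 3. The mean was 7.72 ± 0.27 in F3 and 7.38 ± 0.15 in C2 (SD, n = 3 each), which is 1.27-fold higher, or a log2 difference of 0.35 (95% interval 0.05 to 0.65, SE 0.13). The limma unadjusted p was 0.028 and the adjusted p 0.84. An exact two-sided permutation test over the 6 arrays gave p = 0.3, where 3 against 3 arrays cannot go below 0.1. The same-numbered differences were 0.60, -0.05 and 0.48, so number 2 did not show the difference. Without both arrays of number 2, an alternative added after the data were seen, the log2 change was 0.54 (limma unadjusted p = 0.0013, adjusted p = 0.39). Number 2 was the pair without the rise, so the higher change and smaller p follow from that choice. The JAG1 probe set carries the suffix _s_at, which Affymetrix gives to probes shared by several transcripts. The JAG2 probe set and the NM_203486 probe set of DLL3 carry it too. Which transcripts these are was not determined.

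JAG2, the other Jagged ligand, pointed the other way. Its log2 levels were 9.01, 9.19 and 9.06 in F3, against 9.10, 9.46 and 9.08 in C2. Each F3 array was below its C2 counterpart, with differences of -0.09, -0.27 and -0.02, but the arrays of number 2 were the highest in both populations and the ranges overlapped. The log2 change was -0.13 (95% interval -0.36 to 0.11, limma adjusted p = 0.97), and without C2 replicate 2 it was -0.0038. Whether the changes of JAG1 and JAG2 differ from each other was not tested.

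Among the Delta-like ligands, DLL1, which acts in the crypt beside DLL4, had log2 levels of 7.22, 7.39 and 7.71 in F3, against 7.43, 7.63 and 7.65 in C2. It was lower in F3 for numbers 1 and 2 and slightly higher for number 3, giving a log2 change of -0.13 (95% interval -0.41 to 0.14, limma adjusted p = 0.97). The change was -0.27 without F3 replicate 3, -0.20 without C2 replicate 1 and -0.02 without F3 replicate 1. DLL4, the ligand of sprouting endothelium and of the crypt, averaged 6.63 ± 0.06 in F3 and 6.54 ± 0.07 in C2 (log2 level, SD, n = 3 each). Its same-numbered differences were 0.11, 0.18 and -0.01, and its log2 change was 0.09 (95% interval -0.05 to 0.23, limma adjusted p = 0.97). Without F3 replicate 2 or without C2 replicate 1 the change was 0.06.

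DLL3, a ligand that acts inside the same cell to dampen Notch and is known from neuroendocrine tumours, was measured by 3 probe sets. Their log2 changes were 0.04, -0.07 and 0.06, and no sign was common to all. The first, built on the transcript NM_016941, averaged 4.69 ± 0.02 in F3 and 4.65 ± 0.05 in C2 (SD, n = 3 each). The _x_at probe set on the same transcript, a suffix that warns of probes matching other sequences, averaged 3.51 ± 0.04 in F3 and 3.58 ± 0.12 in C2. The probe set on the transcript NM_203486 averaged 7.10 ± 0.09 in F3 and 7.04 ± 0.13 in C2. With the 3 averaged to a single value per array, the log2 change was 0.01 (95% interval -0.11 to 0.13).

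HES1, the transcriptional repressor that Notch switches on, was higher in F3 on every same-numbered pair. Its log2 levels were 6.47, 5.93 and 6.11 on F3 arrays 1 to 3, against 6.02, 5.78 and 5.88 on C2 arrays 1 to 3. The groups overlapped, because C2 replicate 1 was above F3 replicate 2. The mean was 6.17 ± 0.27 in F3 and 5.89 ± 0.12 in C2 (SD, n = 3 each), which is 1.21-fold higher, or a log2 difference of 0.28 (95% interval -0.02 to 0.57, SE 0.13). The limma unadjusted p was 0.062 and the adjusted p 0.97, and an exact two-sided permutation test over the 6 arrays gave p = 0.2. The same-numbered differences were 0.44, 0.15 and 0.23. All 3 differences were above 0 for 1 of the 12 member probe sets, HES1, against 12.1% of all probe sets, and below 0 for 3 (NOTCH1, NOTCH2 and JAG2), against 17.8%. Without F3 replicate 1 the log2 change of HES1 was 0.13.

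With the replicate number as a block (limma), HES1 had a 95% interval of 0.11 to 0.44, an SE of 0.07 and an unadjusted p of 0.0060, rank 13 of 1259, but an adjusted p of 0.47. JAG1 under the replicate block had a 95% interval of 0.05 to 0.64, an unadjusted p of 0.027 and an adjusted p of 0.52. These were the 2 of 12 member probe sets with an unadjusted p under 0.05 in that fit, against 8.02% of all probe sets, and 0 passed the adjusted threshold.

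The promoter of HES1 is shown because it is the textbook site where Notch signalling meets DNA. The window holds the 250 bases before and the 50 bases from the RefSeq gene start, at chr3:194135898-194136197 on the plus strand of GRCh38.p14, from RefSeq. Capitals mark the core TGGGAA that RBPJ binds.

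HES1: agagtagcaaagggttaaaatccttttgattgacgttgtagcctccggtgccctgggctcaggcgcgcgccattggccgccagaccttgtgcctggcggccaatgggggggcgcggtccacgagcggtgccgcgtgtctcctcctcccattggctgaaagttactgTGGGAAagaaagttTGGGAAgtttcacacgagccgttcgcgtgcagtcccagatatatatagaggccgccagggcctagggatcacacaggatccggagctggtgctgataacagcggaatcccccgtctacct

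The core TGGGAA, searched on both strands, occurred at -84 and -70 from the start, both on the plus strand. Of 35116 promoter windows of the same 300 bases, 24.0% held at least 1 such core and 3.80% held at least 2. The N box CACNAG, the element that HES1 itself binds, also searched on both strands, occurred 4 times in the HES1 window, at -165, -132, -58 and 16, and did not overlap the RBPJ cores. At least 1 N box was in 38.0% of all windows, and at least 4 were in 0.293%.

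For comparison the window of JAG1, the member with the highest change, is given with the same convention, at chr20:10673950-10674249 on the minus strand of GRCh38.p14, from RefSeq.

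JAG1: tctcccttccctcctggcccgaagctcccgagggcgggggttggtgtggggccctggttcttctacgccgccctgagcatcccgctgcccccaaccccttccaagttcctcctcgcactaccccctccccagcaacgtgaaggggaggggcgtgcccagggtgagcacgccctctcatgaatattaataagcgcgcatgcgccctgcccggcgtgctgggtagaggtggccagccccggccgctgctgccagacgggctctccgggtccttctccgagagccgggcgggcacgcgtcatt

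It held neither the RBPJ core nor the N box. Promoter windows were at hand for 8 of the 10 members. Apart from HES1, the other 7 held no TGGGAA, and an N box was in 6 of the 8, HES1 included, the exceptions being JAG1 and JAG2. A match is only a description of these letters, and binding was not measured.

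**Figure D3:**
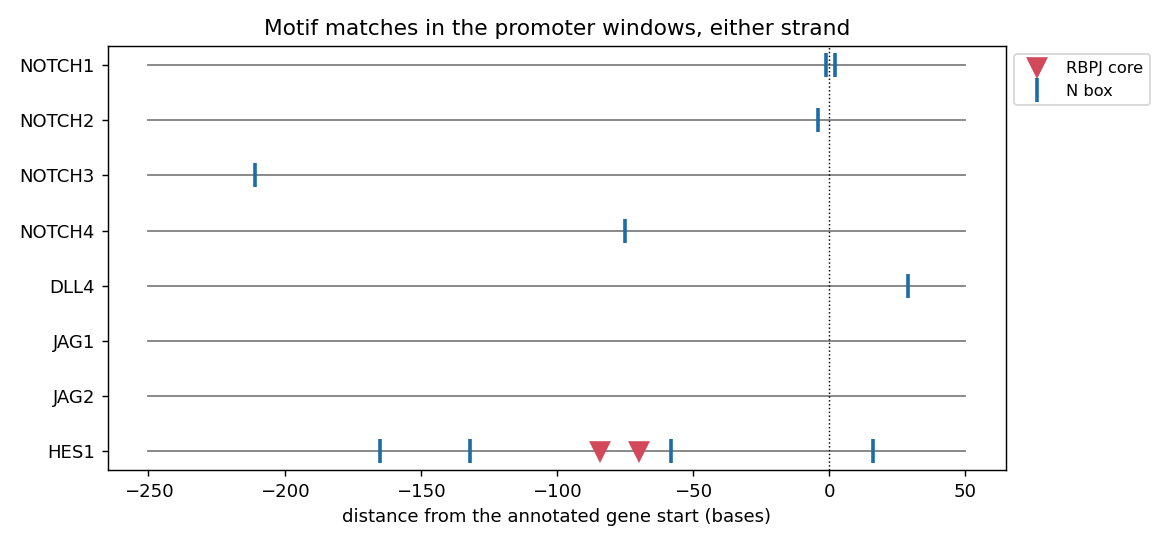
Matches of the RBPJ core (triangles) and the N box (bars), on either strand, in the promoter windows of 8 members, plotted by the distance of the first base from the annotated gene start (horizontal axis, bases). HES1 holds 2 RBPJ cores and 4 N boxes, and JAG1 and JAG2 hold neither motif.

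The levels of HES1 had the same order by array number in F3 as in C2. In both populations replicate 1 was the highest and replicate 2 the lowest, and the mean of the 2 same-numbered arrays was 6.24, 5.86 and 5.99 for numbers 1, 2 and 3. DLL1 had its lowest level on number 1 and its highest on number 3 in both populations, and NOTCH4 its lowest on number 2 and its highest on number 3. These 3 of 12 member probe sets had the same order of numbers in F3 as in C2, against 25.8% of all probe sets. JAG2 was highest on number 2 in both populations.

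A moderated F test of the replicate number in limma, with population in the model, gave an unadjusted p under 0.05 for 4 of the 12 member probe sets, against 13.2% of all. They were HES1 (0.0086), DLL1 (0.017), JAG2 (0.021) and NOTCH4 (0.032). None passed after adjustment, with adjusted p-values of 0.27, 0.31, 0.31 and 0.34, and 0.0794% of all probe sets did. With an intensity trend and robust variance estimation, HES1 (adjusted p = 0.021) and DLL1 (0.043) passed, 2 of 12 members against 5.24% of all probe sets. JAG1 had an unadjusted p of 0.30 for the number in the F test without the trend. The labels do not say what the number stands for.

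**Figure D4:**
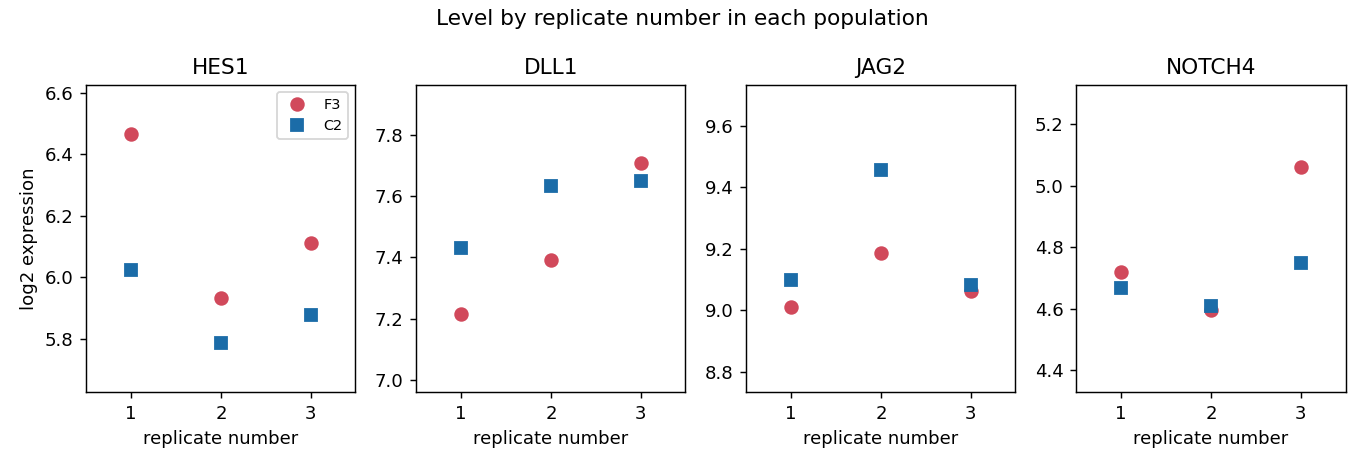
Log2 expression (vertical axes, each spanning 1 log2 unit) of HES1, DLL1, JAG2 and NOTCH4 against the replicate number (horizontal axes), with circles for F3 and squares for C2. HES1 is highest on number 1 and JAG2 on number 2 in both populations, and DLL1 and NOTCH4 are highest on number 3 in both.

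The genes with patterns most like JAG1 and HES1 were found by the root mean square difference of centred log2 values over the 6 arrays, among probe sets of other named genes. For JAG1 the nearest was JUND, which encodes an AP-1 transcription factor, at 0.16 log2 units, against 0.26 for the median probe set. JUND had a log2 change of 0.22 (limma adjusted p = 0.93) and same-numbered differences of 0.27, 0.05 and 0.34. A probe set of ARSD, a sulfatase family member, followed at 0.16 and one of CD44, the hyaluronan receptor, at 0.17. Another probe set of ARSD had log2 levels of 6.40, 6.63 and 6.46 in F3, against 6.31, 6.61 and 6.33 in C2. It was highest on number 2 in both populations, so the nearness holds for the named probe set only. For HES1 the nearest was FGF9, a fibroblast growth factor, at 0.09 log2 units, against 0.24 for the median probe set. FGF9 had a log2 change of 0.20 (limma adjusted p = 0.89) and same-numbered differences of 0.26, 0.10 and 0.25. TGFB1, the cytokine TGF-beta 1, followed at 0.10, and BMP15, a TGF-beta family growth factor, at 0.12. None of the 6 nearest probe sets passed the threshold. They were picked for nearness to the member's values, so a like change and like differences follow from the choice. A probe set flat over the 6 arrays would lie at 0.25 from JAG1 and 0.22 from HES1.

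**Figure D5:**
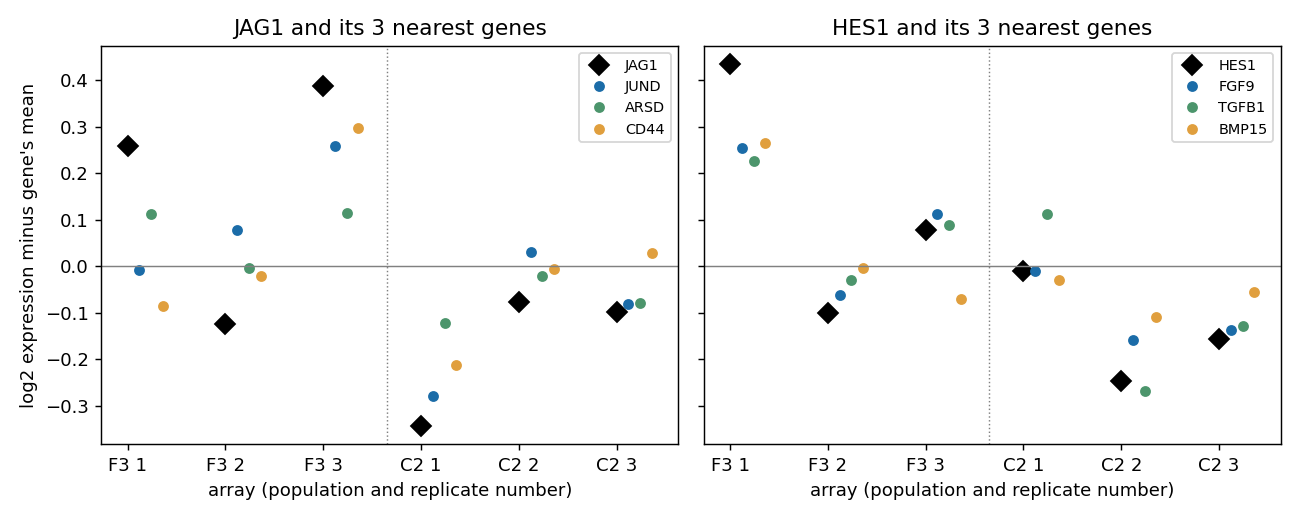
Log2 expression minus each gene's own mean (vertical axis) on the 6 arrays (horizontal axis) for JAG1 and HES1 (diamonds) and the 3 nearest other genes of each (circles, shifted sideways for legibility). JAG1 is high on F3 replicates 1 and 3 and lowest on C2 replicate 1, and HES1 is highest on F3 replicate 1.

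Other genes of the pathway were counted from 2 fixed lists. Of 18 genes for receptor processing and glycosylation, 11 were measured by 14 probe sets, of which 0 rose and 0 fell past the threshold and 0 had an unadjusted limma p under 0.05. Their changes were 7 positive and 7 negative, between -0.12 and 0.09 with a median of 0.0014 on the log2 scale. The smallest p belonged to PSEN2, a catalytic subunit of gamma-secretase, which averaged 6.58 ± 0.12 in F3 and 6.70 ± 0.18 in C2 (log2 level, SD, n = 3 each), a change of -0.12 (95% interval -0.34 to 0.11). Its same-numbered differences were 0.01, -0.45 and 0.10, so only number 2 was lower in F3. POFUT2, a protein O-fucosyltransferase that modifies thrombospondin repeats and not the EGF-like repeats of Notch, came next at -0.06. POFUT1, which puts O-fucose on Notch, had log2 changes of 0.02, 0.01 and 0.01 on its 3 probe sets.

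Of 26 nuclear factors, targets and modulators, only RBPJ and HES7 were measured. RBPJ, the DNA-binding partner of Notch, averaged 2.70 ± 0.05 in F3 and 2.73 ± 0.07 in C2 (log2 level, SD, n = 3 each), a change of -0.04 (95% interval -0.17 to 0.10). That level was at percentile 6.1 of all probe sets, and the lowest value on any array was 2.08. With no detection call, so low a level cannot show whether RBPJ expression changed. HES7, a relative of HES1 known from somite segmentation, averaged 8.17 ± 0.05 in F3 and 8.17 ± 0.01 in C2, a change of 0.00024 (95% interval -0.12 to 0.12).

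The medians of the 6 arrays lay between 5.48 and 5.51, and the median within-group SD was 0.083 over all probe sets and 0.13 over the member probe sets. The deposited values come with no detection call, so none of these genes could be called absent, and precision is limited by the number of arrays. Of 12 colon epithelial markers, 3 were measured (MUC2, MUC13 and LGALS4), with group mean log2 levels from 4.23 to 5.15 in F3 and from 4.13 to 5.12 in C2. Among 12 measured markers of leukocytes, endothelium and fibroblasts, 0 passed the limma threshold, and their log2 changes lay between -0.20 (ICAM2) and 0.09 (CD22). Their group mean log2 levels ran from 2.27 (LUM) to 5.82 (SIGLEC1) in F3 and from 2.32 to 5.77 in C2. The means of the colon markers, NOTCH2, NOTCH3, NOTCH4 and both NM_016941 probe sets of DLL3 lay within these ranges. Whether the signal of those members stood above background was not tested. ICAM2, an endothelial and leukocyte adhesion molecule, was the 1 marker with an unadjusted limma p under 0.05 (0.025, adjusted p = 0.84), and its part in the member values was not tested.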

How the data were processed

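The authors extracted total RNA with Trizol and hybridised biotin-labelled cRNA to Affymetrix arrays, per the labels' protocols. RMA, named per the submitters' processing notes, gave the deposited log2 values, with 1 value for each probe set on each array. RMA corrects background, makes array distributions alike and summarises probes, so it would remove a shift common to most genes. No source used here gives its version or the probe set definitions.

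Probe sets were matched by RefSeq accession, without version, to the RefSeq table of GRCh38.p14: 1043 of 1259 had 1 symbol, and the other 216 stayed in the tests. All 6 arrays were compared, 3 F3 against 3 C2, in limma 3.58.1 (R 4.3.3; lmFit, eBayes, two-sided, Benjamini-Hochberg over all probe sets, threshold 0.05). Whether the 3 arrays of a group stem from separate cultures is unstated, and the spread behind each p-value may therefore be technical only. The labels call F3 clonal in the sample titles and a sorted population in the design text.

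Deviations of same-numbered arrays from their group means correlated across probe sets at r = 0.52, 0.18 and 0.26 for numbers 1, 2 and 3. Arrays of unlike number gave r from -0.38 to 0.15. The fit without the block was kept as the main one, so its intervals and p-values, and the permutation tests, ignore the number. The fit with the replicate number as a block was an alternative. Members, gene lists, the rule for named genes and the alternatives were chosen with earlier results of these data known. The rule names every member probe set, the genes of smallest p in each list and the 3 nearest patterns of member probe sets with an unadjusted p under 0.10. Other values, such as the exact permutation tests (two-sided), the order of the numbers and the motif searches, were added afterwards. The population fit without the block and the test of the replicate number were tried on simulated data beforehand. The simulated data for the population fit held no shared effect of the number. The population fit with the block was not tried in this way.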

Additional observations from a re-analysis of the deposited data

How the results depend on the processing

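For F3 against C2, no member probe set passed an adjusted p of 0.05 in any alternative. The count stayed at 0 with median centring, the replicate block, array weights, a second quantile normalization and an intensity trend with robust variances. It also stayed at 0 with the dimmest 25% of probe sets left out, each array left out in turn and 1 mean per gene. The same held at an adjusted p under 0.10 and, added after the data were seen, with both arrays of number 2 left out. The lowest limma adjusted p of any member in that comparison was 0.39, for JAG1 without both arrays of number 2. Over all probe sets the count called was 2 with the replicate block and 2 at an adjusted p under 0.10, in place of 1, and 0 to 2 with 1 array left out. The count called for the replicate number was 66 in place of 1 with the intensity trend and robust variances; the cause was not tested. Of 167 member values under alternatives, 5 changed sign, none past the threshold, and the cause was not tested beyond the arrays left out. NOTCH4 ran from -0.017 to 0.22 with 1 array left out. The NM_203486 probe set of DLL3 ran from -0.0015 to 0.13 with 1 array left out and was at -0.028 without both arrays of number 2. The _x_at probe set of DLL3 was left out with the dim probe sets, and became 0.012 as the mean of the DLL3 probe sets and 0.0045 without both arrays of number 2. With 1 array left out JAG1 ran from 0.24 to 0.50 and HES1 from 0.13 to 0.39.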
